A study of Arabidopsis thaliana with 10 samples.

Results

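The 7 genes of one growth circuit were followed through dark-grown Arabidopsis thaliana seedlings: PRE1 (AT5G39860), PRE2 (AT5G15160), PRE3 (AT1G74500), PRE4 (AT3G47710), PRE5 (AT3G28857), PRE6 (AT1G26945, also called KIDARI) and IBH1 (AT2G43060). They were taken by locus identifier as a gene family with its inhibitor, and all 7 were among the 33322 loci of the count tables; 6 of them passed the filter on low counts that left 18680 loci for testing, and PRE4 did not. The study grew whole seedlings of the Columbia background and sequenced polyadenylated 3′ ends of their messenger RNA in 10 genotypes with 3 biological replicates each, called A, B and C. The genotypes were wild type (WT), the single mutants pif1, pif3, pif4 and pif5, the triple mutants pif345, pif145, pif135 and pif134, named for the PIF genes that were mutated, and the quadruple mutant pifq, in which PIF1, PIF3, PIF4 and PIF5 were all mutated. Every group had the same growth: 3 h of white light to start germination, 15 min of far-red light, and 48 h of darkness at 21 °C. The labels give no mutant alleles. RNA came from about 100 mg of whole seedlings, so fewer cells of a type and less RNA per cell cannot be told apart in any value below.

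PRE proteins are small helix-loop-helix proteins that lack the basic stretch with which bHLH proteins hold DNA. They act by pairing with other helix-loop-helix proteins. IBH1, an inhibitor of cell elongation, ties up DNA-binding bHLH activators such as HBI1, and PRE proteins bind IBH1 and set those activators free. Brassinosteroid, auxin and gibberellin are known to raise PRE transcripts, and PIF proteins, bHLH factors that accumulate in darkness, drive the long hypocotyl of dark-grown seedlings. The comparisons asked how far each PIF gene, alone or with the others, sets the level of these 7 transcripts.

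The genes lie apart in the genome. In the RefSeq annotation of TAIR10.1, PRE1 lies on chromosome 5 from 15957368 to 15958559, PRE2 on chromosome 5 from 4921243 to 4922812, PRE3 on chromosome 1 from 27997919 to 27998821, and PRE4 on chromosome 3 from 17590544 to 17591670. PRE5 lies on chromosome 3 from 10855623 to 10856787, PRE6 on chromosome 1 from 9351160 to 9352833, and IBH1 on chromosome 2 from 17909007 to 17910210. Each PRE gene has 2 exons and IBH1 has 1. No other annotated locus overlaps any of the 7. IBH1 begins 19920 bases from the end of PIF4, one of the mutated genes, with 4 loci between them. The coding sequences of the PRE genes run from 279 to 285 bases and that of IBH1 is 471 bases. Among the PRE genes the closest coding sequences were those of PRE1 and PRE5, at 84.6% identity, and the most distant were those of PRE2 and PRE3, at 64.5%. The longest run shared by any 2 of the 7 transcripts, shown because it bounds how long a read would have to be to tell them apart, was tacaagagacttgcaactacat, 22 bases held by PRE2 and PRE6. That bound holds for exact matches only. Within the last 300 bases of the transcripts, the end that the 3′ libraries sample, the longest shared run was 16 bases, held by PRE1 and PRE5. There PRE2 and PRE6 shared at most 9. How reads with several hits were treated is not given in the sources used here.

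The 300 bases before the transcript start are shown for the 4 genes on which the comparisons turned, 5′ to 3′ on the gene's own strand, with every E-box (CANNTG, the core site of bHLH proteins) in capitals. PIF proteins are known to prefer 2 kinds of E-box, the G-box (CACGTG) and the PBE-box (CACATG, or CATGTG on the other strand).
PRE1, chr5:15957068-15957367 (plus strand): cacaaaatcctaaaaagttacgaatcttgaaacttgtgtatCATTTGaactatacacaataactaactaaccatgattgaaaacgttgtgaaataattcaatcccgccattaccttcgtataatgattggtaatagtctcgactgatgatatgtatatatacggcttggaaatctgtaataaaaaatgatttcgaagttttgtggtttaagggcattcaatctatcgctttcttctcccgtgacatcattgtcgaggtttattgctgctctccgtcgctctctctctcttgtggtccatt
PRE2, chr5:4922813-4923112 (minus strand): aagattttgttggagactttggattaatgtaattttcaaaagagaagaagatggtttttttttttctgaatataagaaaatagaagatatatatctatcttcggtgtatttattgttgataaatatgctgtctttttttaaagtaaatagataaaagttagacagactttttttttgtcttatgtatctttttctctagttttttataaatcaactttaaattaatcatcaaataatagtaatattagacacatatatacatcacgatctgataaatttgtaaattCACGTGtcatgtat
PRE5, chr3:10856788-10857087 (minus strand): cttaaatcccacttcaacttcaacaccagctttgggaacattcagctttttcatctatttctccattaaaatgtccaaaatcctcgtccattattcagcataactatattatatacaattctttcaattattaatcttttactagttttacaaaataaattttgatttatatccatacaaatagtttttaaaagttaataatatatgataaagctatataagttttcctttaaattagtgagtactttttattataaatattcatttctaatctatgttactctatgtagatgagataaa
IBH1, chr2:17908707-17909006 (plus strand): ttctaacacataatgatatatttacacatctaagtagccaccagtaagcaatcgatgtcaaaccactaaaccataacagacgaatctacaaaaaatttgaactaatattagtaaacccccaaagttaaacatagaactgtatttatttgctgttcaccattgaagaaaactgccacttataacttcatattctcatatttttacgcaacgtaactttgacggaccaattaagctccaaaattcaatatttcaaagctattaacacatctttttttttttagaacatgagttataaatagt
PRE2 was the only one of the 7 genes with a G-box in this window; it begins 14 bases before the start, and 7.09% of 27443 protein-coding promoters of the same length hold one. PRE1 held 1 E-box, CATTTG, at 259 bases before the start, and PRE5 and IBH1 held none, where 61.9% of the promoters hold at least 1. Of the genes not printed, PRE3 held CACTTG at 14 bases, PRE4 a PBE-box at 63 bases, and PRE6 a PBE-box at 77 bases with a second E-box at 216; 13.1% of the promoters hold a PBE-box. In a window of 1000 bases, PBE-boxes also appeared before PRE1 at 936 bases, before PRE3 at 759 and before PRE5 at 615 and 369, against 37.7% of all promoters. IBH1 had no E-box within 1000 bases, whereas 96.2% of the promoters have one. The brassinosteroid response element CGTGCG and the related CGTGTG, searched on both strands, were in none of the 7 wide windows (5.09% and 17.2% of promoters). The auxin response element TGTCTC was found once, at 461 bases before PRE1 (39.6% of promoters). These matches describe letters only.

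The libraries held from 18.97 to 70.8 M (mega) counts, with a median of 25.2 M. Levels are given as CPM, counts of a locus per M counts of the library total, scaled by edgeR's TMM factors. Since 3′-end fragments give each transcript about one site of reads, the labels state that no length adjustment is needed, and levels of different genes are set side by side on that footing. PIF1 averaged 63.1 CPM in the libraries labelled pif134 against 25.0 CPM in WT and 1.61 CPM in pif1. Its transcript thus does not show the PIF1 loss that the label names. These libraries are named by their label and no direction is drawn from them for PIF1. PIF1 averaged 7.66 CPM in pif145, where a library reached 14.9 and the difference from WT was not called (adjusted p = 0.0524), and 5.71 CPM in pif135, where a library reached 12.4 (adjusted p = 0.0162). PIF3 and PIF5 were low wherever the labels have them mutated, but PIF4 was low in none of its mutants. It averaged 11.7 CPM in WT, 18.8 in pif4, 55.1 in pif345, 41.9 in pif145, 147 in the libraries labelled pif134 and 46.2 in pifq, the last 4 called higher than WT. Reads of 3′ ends can remain from a disrupted gene. Neither the PIF4 counts nor the PIF1 count in the libraries labelled pif134 can thus check the label. The markers of dark-grown seedlings were present in every library, PHYA at 293 CPM or more and PORA at 301.4 or more, though PORA averaged 1275 CPM in WT, 413 in pif135 and 410.2 in pifq. The summed level of 3 root markers ran from 23.8 to 29.8 CPM in WT, 17.1 to 23.4 in pifq, 14.7 to 21.5 in pif145 and 14.7 to 17.04 in the libraries labelled pif134. Of these, the root hair gene EXPA7 averaged 9.15 CPM in WT, 1.81 in pif145, 0.211 in the libraries labelled pif134 and 0.912 in pifq, while SCR lay at 16.4 in WT and 18.3 in pifq; the part of these markers in the results below was not tested. Of 3 flower markers AP3 and AG lay at or near 0, but PI was present at 4.19 to 20.0 CPM. The summed level of 7 seed reserve transcripts ran from 2178 to 4185 CPM in WT and from 1956 to 3717 in pif345. It ran from 1498 to 6886 CPM in pif3, 693 to 2557 in pif4 and 1451 to 6724 in pif5. Sums were lower in pif1 (38.5 to 63.2 CPM), pif145 (26.5 to 325), pif135 (40.0 to 201) and pifq (137 to 710, overlapping pif4). The libraries labelled pif134 lay with these, at 12.1 to 284 CPM, unlike their PIF1 count. Whether PIF1 is active in them was not tested, nor was the part of this sum in the results below. Replicates with the same letter deviated together within WT and the single mutants and within the triple mutants and pifq. Between these 2 sets all 3 letters did so in only 1 of 25 genotype pairs. Single letters could still go together there: deviations of WT A and pif345 A had r = 0.41, but those of WT B and pif345 B had r = -0.31. A triple mutant or pifq against WT thus also crosses the sets, and there set and genotype cannot be told apart. Values with the replicate letter as a block within each set are given beside a result where they change its call.

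PRE5 fell most clearly. In WT its level was 17.1, 12.7 and 16.8 CPM in replicates A, B and C. In pifq it was 3.05, 7.36 and 2.94 CPM. No pifq library reached the lowest WT library, and replicate B was the highest of the 3 in pifq and the lowest of the 3 in WT. The log2 fold change was -1.80 ± 0.35 (SE, n = 3 and 3; edgeR quasi-likelihood test, adjusted p = 0.000665), and leaving out any single library of either group kept the call, with log2 fold changes between -2.37 and -1.59. In pif145, which keeps PIF3, PRE5 was at 5.41, 8.95 and 6.09 CPM, all below WT (log2 fold change -1.19 ± 0.34, adjusted p = 0.0234). That call was lost without WT A, WT C, pif145 A or pif145 C, with adjusted p between 0.0181 and 0.112 over the 6 ways of leaving out a library. In pif345 the libraries held 7.87, 10.6 and 5.12 CPM and in pif135 they held 8.31, 11.9 and 5.79, again all below WT, with log2 fold changes of -0.98 ± 0.34 (adjusted p = 0.110) and -0.83 ± 0.34 (adjusted p = 0.107) that missed the threshold. With the replicate block within sets both passed it, at -1.03 ± 0.21 (adjusted p = 0.00271) and -0.89 ± 0.21 (adjusted p = 0.00305). The libraries labelled pif134, at 13.5, 11.998 and 6.87 CPM, overlapped WT (log2 fold change -0.52 ± 0.34, adjusted p = 0.321). Among the single mutants PRE5 averaged 18.4 CPM in pif4, 15.3 in pif3, 12.5 in pif1 and 12.4 in pif5, and none of the 4 differed from WT by the test, with log2 fold changes between -0.32 and 0.24. Ordered by mean, the genotypes ran from pif4 through WT, pif3, pif1, pif5, the libraries labelled pif134, pif135, pif345 and pif145 to pifq, and of the 9 pairs of neighbours in this order only pif4 and WT did not overlap.

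PRE1, the founding member of the family, followed another order. Its level was 13.2, 7.56 and 6.57 CPM in WT, and it was lowest in pif5, at 4.43, 4.06 and 5.22 CPM. It was about as low in pif345 (5.68, 5.18 and 5.66 CPM), in the libraries labelled pif134 (7.17, 3.74 and 5.23) and in pifq (3.14, 6.18 and 5.74). The pif5, pif345 and pifq libraries lay below all 3 WT libraries, whereas the libraries labelled pif134 overlapped them. It was highest in pif1, at 20.2, 12.3 and 16.0 CPM, followed by pif135 at 8.74, 17.3 and 16.1 and by pif4 at 11.8, 11.3 and 16.2. All 3 genotypes overlapped WT only through WT A. None of the 9 comparisons with WT called PRE1 with edgeR's quasi-likelihood test: the log2 fold change was -0.99 ± 0.32 in pif5 (adjusted p = 0.200), -0.86 ± 0.33 in pifq (adjusted p = 0.0744) and 0.83 ± 0.32 in pif1 (adjusted p = 0.137). With the block these 3 passed, at -0.97 ± 0.29 (adjusted p = 0.0396), -0.87 ± 0.29 (adjusted p = 0.0232) and 0.83 ± 0.28 (adjusted p = 0.0368). In the order of means, pif1, pif135, pif4, pif3, pif145, WT, pif345, the libraries labelled pif134, pifq and pif5, only WT and pif345 did not overlap among the 9 pairs of neighbours.

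PRE6, whose product is known to pair with the light-signalling protein HFR1, had 13.1, 10.4 and 14.8 CPM in WT. It was lowest in pif145 (5.17, 9.33 and 4.40 CPM) and pifq (3.76, 11.3 and 4.63 CPM). All pif145 libraries lay below WT, while pifq B lay within the WT range. The log2 fold changes, -1.02 ± 0.38 in pif145 (adjusted p = 0.0755) and -0.96 ± 0.38 in pifq (adjusted p = 0.0849), missed the threshold of edgeR's test. With the replicate block within sets both passed, at -1.09 ± 0.21 (adjusted p = 0.000556) and -1.09 ± 0.21 (adjusted p = 0.000438). Leaving out replicate B of the mutant alone also brought them past it, pif145 at an adjusted p of 0.0275 and pifq at 0.00774. The other 7 mutants had log2 fold changes between -0.42 and 0.35, the highest mean being that of pif3 (16.3 CPM), where replicate C stood at 23.8 CPM above A and B at 11.8 and 13.2. All 9 pairs of neighbours in the order of means, pif3, pif4, WT, pif1, pif135, the libraries labelled pif134, pif345, pif5, pifq and pif145, overlapped.

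PRE2, also called BANQUO2, was scarce and moved the other way. WT libraries held 7, 8 and 8 reads of it, or 0.287, 0.171 and 0.263 CPM. In pifq there were 22, 36 and 20 reads (0.974, 1.70 and 0.965 CPM), in pif135 there were 17, 82 and 23 (0.743, 1.95 and 0.931 CPM), and the libraries labelled pif134 had 24, 30 and 11 (1.38, 1.44 and 0.581 CPM). Every one of these 9 libraries lay above all WT libraries. PRE2 rose with log2 fold changes of 2.35 ± 0.58 in pifq (adjusted p = 0.00546), 2.37 ± 0.57 in pif135 (adjusted p = 0.00616) and 2.25 ± 0.58 in the libraries labelled pif134 (adjusted p = 0.00671). The call held without any single library in pifq and in the libraries labelled pif134, and in pif135 it was lost without pif135 B, the library with 82 reads (adjusted p = 0.0696). In pif1, at 0.505, 0.502 and 1.13 CPM, all libraries were above WT too, with a log2 fold change of 1.59 ± 0.58 (adjusted p = 0.119) that passed only with the block (1.53 ± 0.51, adjusted p = 0.0361). The other log2 fold changes, 1.34 in pif3, 1.38 in pif145, 0.99 in pif345, 0.20 in pif4 and -0.22 in pif5, were not called. The order of means was pifq, pif135, the libraries labelled pif134, pif1, pif145, pif3, pif345, pif4, WT and pif5, and all 9 pairs of neighbours overlapped.

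PRE3, also called ATBS1 for its activation in a suppressor of a brassinosteroid receptor mutant, was called in no comparison. Its levels were 1.31, 1.03 and 1.18 CPM in WT and 1.24, 1.18 and 1.21 CPM in pifq, and the log2 fold change between them was 0.05 ± 0.55 (adjusted p = 0.967), a 95% interval of -1.04 to 1.13. Over all 30 libraries it ranged from 0.159 CPM, 3 reads in pif145 C, to 2.53 CPM in pif3 A. The genotype means went from 1.74 CPM in pif3 down through pifq, pif1, WT, pif145, pif135, pif4, the libraries labelled pif134 and pif5 to 0.512 CPM in pif345, with all 9 pairs of neighbours overlapping. PRE4, also called BANQUO3, had no read in any of the 30 libraries, 819.8 M counts in all. A count of 0 allows up to 3 counts, or 0.00366 CPM over all libraries and 0.0424 to 0.158 CPM in a single library, counting error only. WT PRE2, at 0.241 ± 0.061 CPM (SD, n = 3), stood above that limit.

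IBH1, the inhibitor, was the most abundant of the 7 and fell in pifq. WT libraries held 111, 34.0 and 60.6 CPM, and pifq libraries 16.4, 38.1 and 20.7. The groups overlapped in replicate B, which was the lowest WT library and the highest pifq library. The log2 fold change was -1.45 ± 0.43 (adjusted p = 0.0221), and it was lost without WT A, pifq A or pifq C, and over all 6 ways of leaving out a library the log2 fold change was between -1.89 and -0.92 and the adjusted p between 0.00747 and 0.215. With the block it was -1.34 ± 0.38 (adjusted p = 0.00887). IBH1 was at 50.6, 47.5 and 20.8 CPM in pif345, at 39.5, 34.95 and 37.8 in pif145 and at 50.8, 32.9 and 28.8 in pif135, with log2 fold changes of -0.79, -0.87 and -0.87 that were not called (adjusted p = 0.333, 0.189 and 0.187). The libraries labelled pif134 split, with A at 96.3 CPM and B and C at 41.3 and 39.8. Among the single mutants the means were 84.0 CPM in pif4, 64.4 in pif1, 60.1 in pif3 and 48.2 in pif5, and no log2 fold change left the range from -0.51 to 0.30. The means of the 10 genotypes descended from pif4 through WT, pif1, pif3, the libraries labelled pif134, pif5, pif345, pif135 and pif145 to pifq, and each of the 9 pairs of neighbours overlapped.

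**Figure D1:**
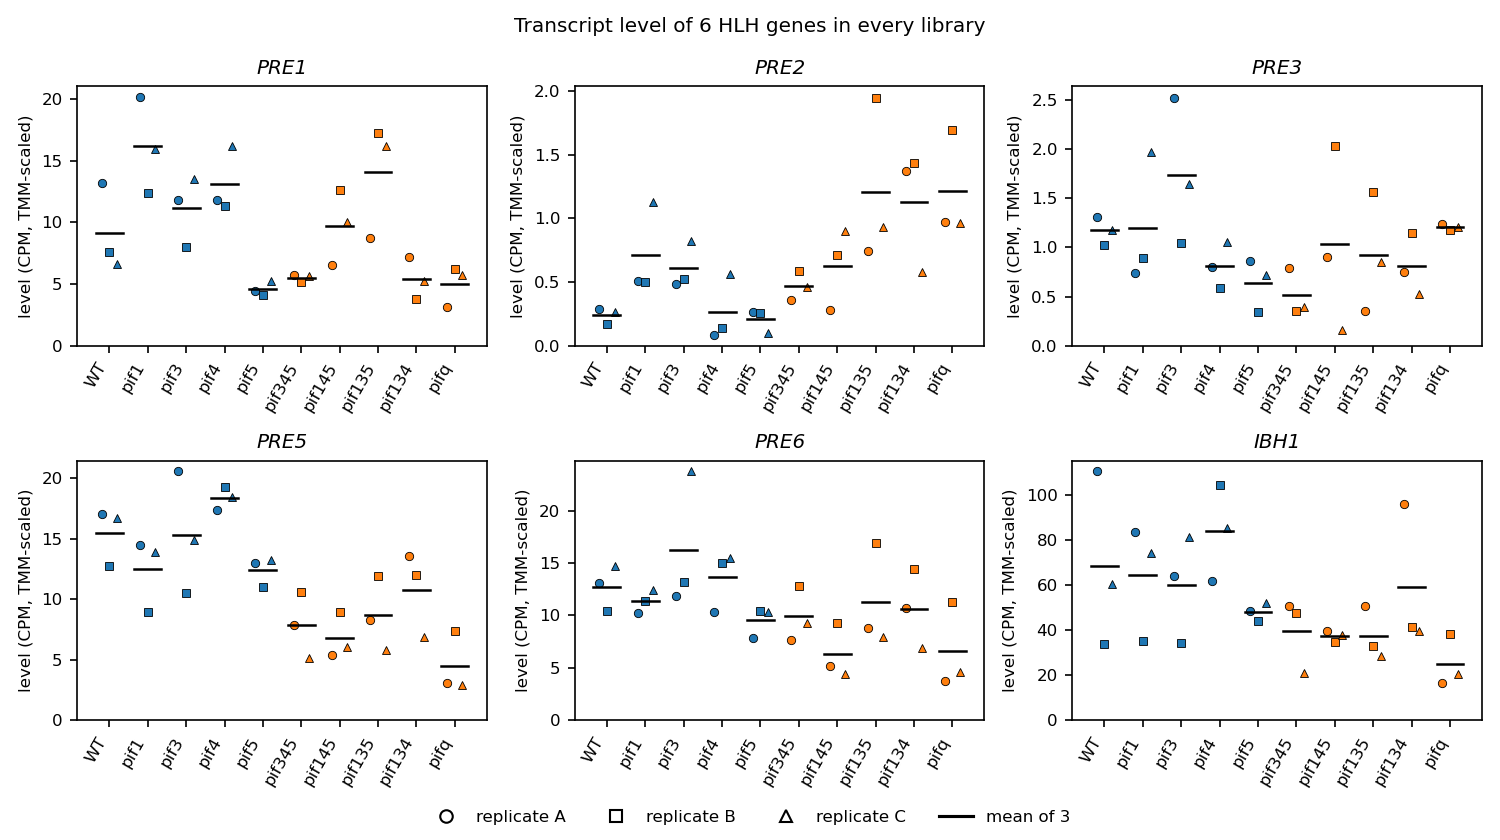
Level of each detected gene (vertical axis, CPM scaled by TMM factors, from 0) in the 10 genotypes (horizontal axis), with a circle, square and triangle for replicates A, B and C and a line at their mean; WT and single mutants are blue, triple mutants and pifq orange. PRE5 and IBH1 have their lowest means in pifq (4.45 and 25.1 CPM), PRE2 has its highest there (1.21 CPM), and PRE1 is lowest in pif5 (4.57 CPM).

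Of the 7 members 6 were tested, and the share of all tested loci called in the same comparison is the measure to read their counts against. That share is for adjusted p. No share of all loci is given for an unadjusted p under 0.05. Member counts at that cut-off, here and below, are therefore not read as results about the members. In pif1, pif3, pif4 and pif5 no member was called against WT, where edgeR's test called 3.76%, 0.112%, 0.0589% and 0.128% of all loci; 2, 1, 0 and 1 members had an unadjusted p under 0.05, and DESeq2 called none. In pif345 none was called (3.9% of loci; 2 members with an unadjusted p under 0.05; none by DESeq2). One member was called in each of pif145 (PRE5, lower; 12.1% of loci), pif135 (PRE2, higher; 12.6%) and the libraries labelled pif134 (PRE2, higher; 16.9%), shares of the members close to the background. In pifq 3 of the 6 tested members were called, PRE5 and IBH1 lower and PRE2 higher, against 15.2% of loci. The median log2 fold change of these 6 was -0.91 against -0.01 over all loci. The replicate block within sets called 2 members in pif1 (19.6% of loci), 1 in pif5 (7.29%), 1 in pif345 (16.5%), 2 in pif145 (29.6%), 2 in pif135 (29.3%), 1 in the libraries labelled pif134 (32.5%) and 5 in pifq (32.4%), a larger share of loci in each of these 7 than without it; in pifq PRE1, PRE5, PRE6 and IBH1 were lower and PRE2 higher. All 9 comparisons share the WT libraries.

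**Figure D2:**
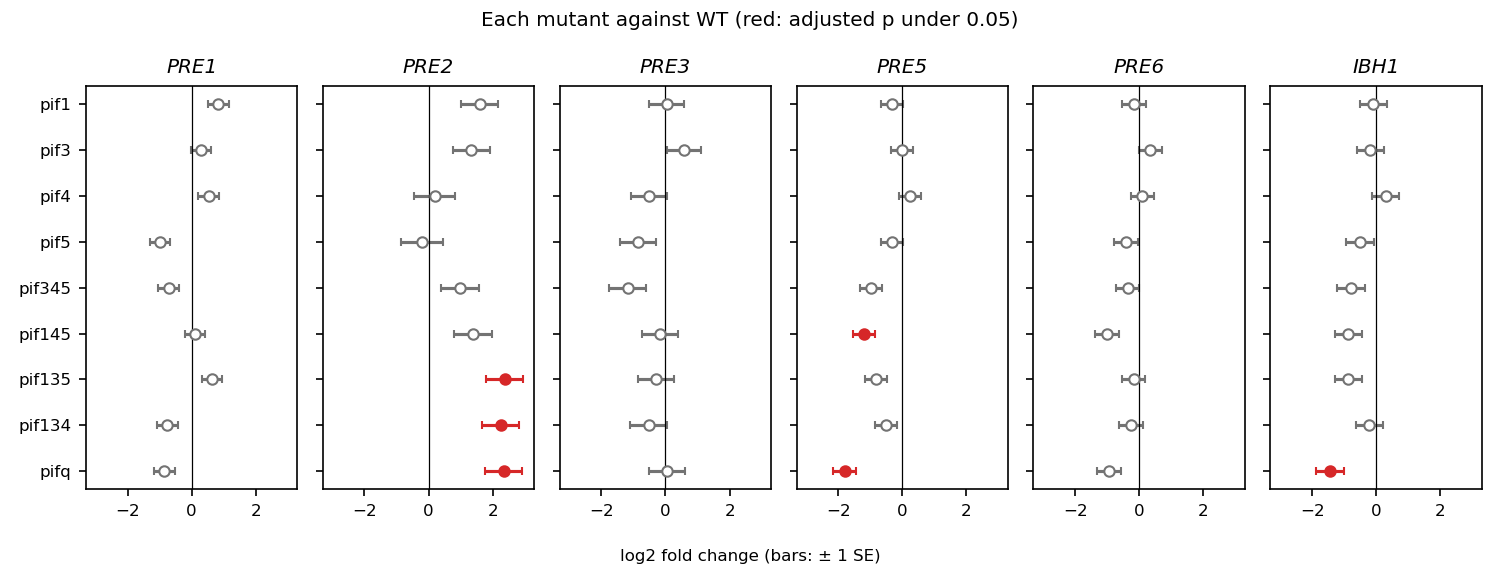
Log2 fold change of each tested gene against WT (horizontal axis, bars ± 1 SE) in the 9 mutants (rows), filled red where the adjusted p of edgeR's test is under 0.05. The red points are PRE2 in pif135, pif134 and pifq, PRE5 in pif145 and pifq, and IBH1 in pifq; PRE1 lies on both sides of 0.

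Comparing pifq with pif345, pif145 and pif135 asks what the PIF gene left in the triple mutant maintains, and these comparisons stay within 1 set of libraries. The libraries labelled pif134 differed from pifq in the transcript of more than 1 PIF gene, with PIF1 at 63.1 against 3.79 CPM and PIF5 at 19.4 against 0.465. PIF4 transcript was not lower by the test in pifq than in pif135 (46.2 against 62.6 CPM; log2 fold change -0.44 ± 0.33, adjusted p = 0.647), so the loss of PIF4 there rests on the label. PRE1 was lower in pifq than in pif135, labelled to differ in PIF4: the 3 pif135 libraries, at 8.74, 17.3 and 16.1 CPM, all lay above the 3 of pifq, at 3.14, 6.18 and 5.74. The log2 fold change was -1.49 ± 0.33 (edgeR quasi-likelihood test, adjusted p = 0.0298), and PRE1 was the 1 member called among 0.696% of loci. The call was lost without pif135 B, pif135 C or pifq A, and in a fit to these 2 groups alone, where 0 members were called. No member was called in pifq against pif345 (2.75% of loci), pif145 (0.551%) or the libraries labelled pif134 (1.35%), where 3, 1 and 2 members had an unadjusted p under 0.05; DESeq2 called PRE5 in the last of these and none in the other 2. Against pif145, PRE1 had a log2 fold change of -0.95 ± 0.33 (adjusted p = 0.323), and against pif345 and the libraries labelled pif134 it had -0.13 and -0.10. PRE5 was lower in pifq on average than in every triple mutant, with log2 fold changes of -0.82 against pif345, -0.61 against pif145, -0.97 against pif135 and -1.28 ± 0.35 against the libraries labelled pif134 (adjusted p = 0.0699), none called. The last of these was called without pif134 C or pifq B. With the block, 2 members were called against pif345 (10.4% of loci), PRE5 at -0.86 ± 0.22 (adjusted p = 0.0157) and PRE6 at -0.71 ± 0.21 (adjusted p = 0.0345). The block called 3 against pif135 (6.49% of loci), PRE1 at -1.48, PRE5 at -0.998 and PRE6 at -0.83 (adjusted p = 0.0044, 0.0119 and 0.0249). It called 2 against the libraries labelled pif134 (3.35% of loci), PRE5 at -1.35 and PRE6 at -0.79 (adjusted p = 0.000795 and 0.0414), and 0 against pif145, where PRE6 had 0.06 ± 0.38 without the block. The 4 comparisons share the pifq libraries.

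The change on losing 1 PIF gene from WT was then set against the change from the triple mutant labelled to keep that gene to pifq, as an interaction. For PIF5 that triple mutant is the libraries labelled pif134, in which PIF1 transcript was not low. The PIF5 value sets pif5 against WT beside pifq against those libraries and is not read as the loss of PIF5 alone. For PRE1, pif4 against WT gave a log2 fold change of 0.53 ± 0.32, which was not called and had the opposite sign to the -1.49 of pifq against pif135. The difference was 2.01 ± 0.46 (edgeR quasi-likelihood test, adjusted p = 0.0371), and PRE1 was the 1 member called among 0.525% of loci. It was lost without WT B, WT C, any 1 of the 3 pif4 libraries, pif135 B, pif135 C or pifq A, and in a fit to the 4 groups alone; over all 12 ways of leaving out a library it was 1.76 to 2.37, with adjusted p from 0.00854 to 0.165. With the block (7.01% of loci) it was 2.03 ± 0.40 (adjusted p = 0.00519), and PRE5 was called too, at 1.27 ± 0.31 (adjusted p = 0.0159) against 1.21 ± 0.48 without the block (adjusted p = 0.273). The interactions of PIF1 (0.653% of loci), PIF3 (0.219%) and PIF5 (1.32%) called no member, with 1, 1 and 0 members at an unadjusted p under 0.05 and none called by DESeq2. For PRE1 these interactions were 0.97 ± 0.46 for PIF1, 1.24 ± 0.45 for PIF3 and -0.89 ± 0.46 for PIF5. The PIF5 value pairs a log2 fold change of -0.99 in pif5 with -0.10 between pifq and the libraries labelled pif134.

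**Figure D3:**
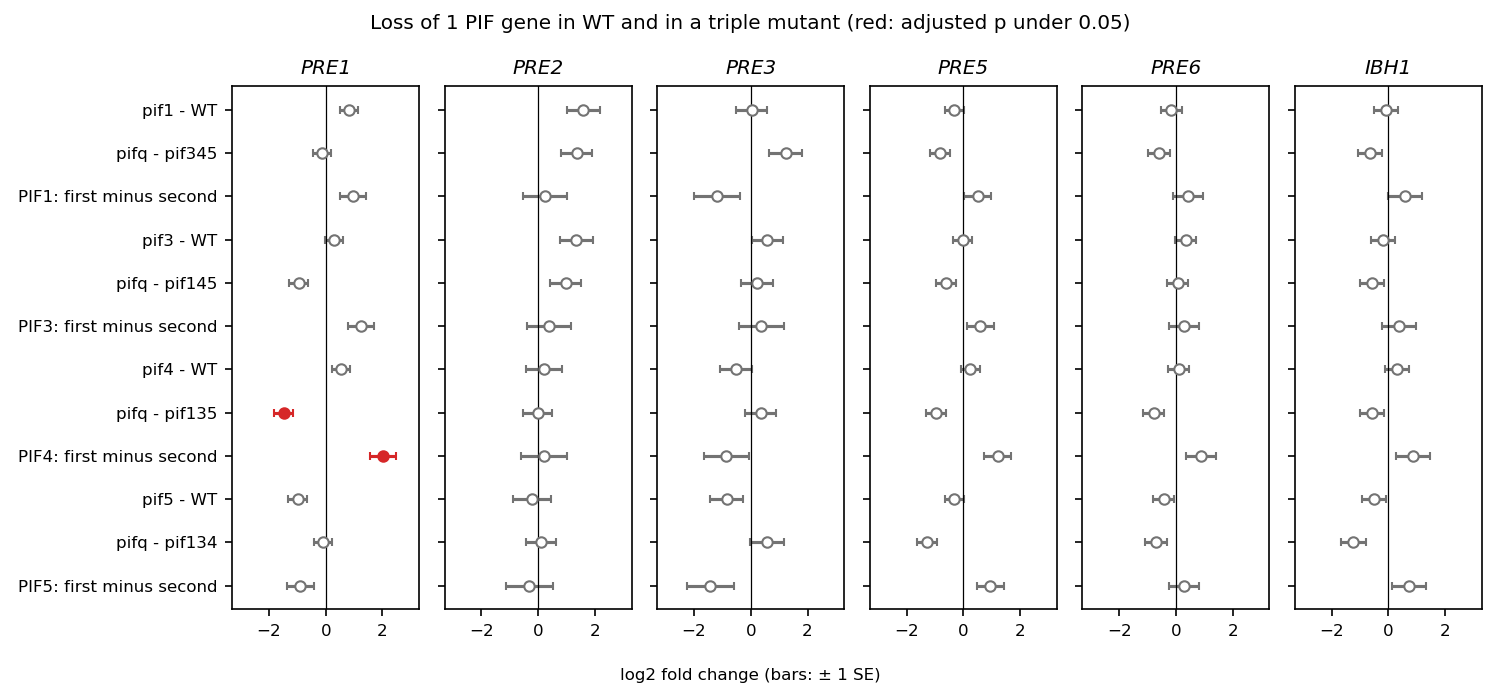
For each PIF gene (rows in groups of 3), the log2 fold change (horizontal axis, bars ± 1 SE) on losing it from WT, in pifq against the triple mutant labelled to keep that gene, and the first minus the second; the PIF5 rows use the libraries labelled pif134, where PIF1 was at 63.1 CPM; red marks an adjusted p under 0.05. Red points are those of PRE1 for PIF4: -1.49 from pif135 to pifq and a difference of 2.01.

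Mutants of the same order were also compared pairwise, 12 pairs in all, and PRE1 was the 1 member called in any. Among the single mutants it was higher in pif1 than in pif5 (log2 fold change 1.82 ± 0.33, adjusted p = 0.000657; 5.5% of loci called), with all 3 pif1 libraries (12.3 to 20.2 CPM) above all 3 of pif5 (4.06 to 5.22), and this held without any single library. It was higher in pif4 than in pif5 (1.52 ± 0.33, adjusted p = 0.0225; 0.551% of loci), again with no overlap, but leaving out any 1 of the 6 libraries ended that call (log2 fold change 1.32 to 1.61, adjusted p 0.0549 to 0.153). Among the triple mutants it was lower in pif345 than in pif135 (-1.35 ± 0.32, adjusted p = 0.0147; 3.08% of loci), a call lost without pif135 B, pif135 C or any 1 of the 3 pif345 libraries, with adjusted p up to 0.115. It was higher in pif135 than in the libraries labelled pif134 (1.39 ± 0.33, adjusted p = 0.00679; 9.15% of loci), a call lost only without pif134 B (adjusted p = 0.0586). No member was called in pif1 against pif3 (1.4% of loci), pif1 against pif4 (1.92%), pif3 against pif4 (0.0428%), pif3 against pif5 (0.637%), pif345 against pif145 (1.52%), pif345 against the libraries labelled pif134 (4.47%), pif145 against pif135 (0.112%) or pif145 against the libraries labelled pif134 (2.89%). In these 8 pairs 0, 1, 0, 4, 1, 1, 1 and 1 members had an unadjusted p under 0.05, in the same order, and DESeq2 called PRE1 in pif3 against pif5 and none elsewhere. With the block, pif1 against pif5 (16.2% of loci) also called PRE2 at 1.72 ± 0.54 (adjusted p = 0.0309). In pif3 against pif5 (4.71% of loci) the block called PRE1 at 1.26 ± 0.28 (adjusted p = 0.0148) and PRE6 at 0.73 ± 0.21 (adjusted p = 0.0443). In pif145 against the libraries labelled pif134 (8.17% of loci) it called PRE6 at -0.79 ± 0.21 (adjusted p = 0.0239).

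The balance between PRE transcripts and IBH1 can be read within each library. The PRE genes summed to 38.8 ± 6.6 CPM in WT (SD, n = 3), 27.4 ± 2.0 in pif5, 24.3 ± 4.6 in pif345, 24.5 ± 8.1 in pif145, 28.8 ± 7.5 in the libraries labelled pif134 and 18.5 ± 8.2 in pifq. It was 36.09 ± 11.97 in pif135, 41.9 ± 6.8 in pif1, 45.1 ± 10.8 in pif3 and 46.2 ± 5.7 in pif4. Divided by IBH1 of the same library, the sum was 0.666 ± 0.266 in WT and 0.739 ± 0.010 in pifq, whose 3 libraries lay between 0.728 and 0.748 within the WT range of 0.407 to 0.939. The highest mean ratio, 1.05 ± 0.49, was that of pif135, and the lowest, 0.549 ± 0.225, was that of the libraries labelled pif134. These ratios were not tested. In the make-up of the PRE sum, which was not tested either, PRE5 made up 40.1 ± 2.2% in WT and 23.5 ± 4.0% in pifq, while PRE2 made up 0.614 ± 0.067% and 6.78 ± 1.05%, and PRE3, with a near equal level in both, 3.05 ± 0.16% and 7.41 ± 2.98%. PRE6 made up 33.1 ± 4.1% and 33.9 ± 6.0%, and PRE1 23.2 ± 6.3% and 28.4 ± 7.7%.

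**Figure D4:**
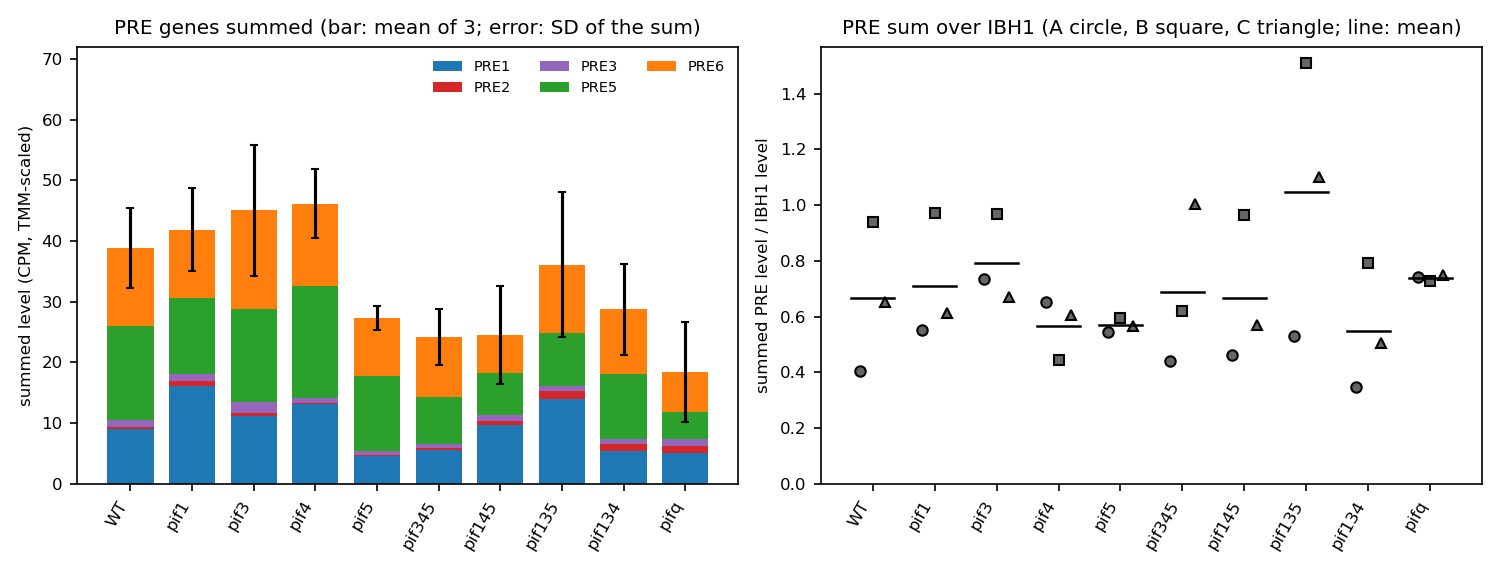
Left, summed PRE level (vertical axis, CPM; bars are means of 3 libraries split by gene, error bars the SD of the sum) by genotype; right, that sum divided by the IBH1 level in each library, with a line at the mean. The sum falls from 38.8 CPM in WT to 18.5 in pifq, and the pifq ratios of 0.728 to 0.748 lie inside the WT range.

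Across the 10 genotype means of log2 CPM, PRE5 ran closely with IBH1 (Pearson r = 0.961) and PRE6 (r = 0.883), and PRE6 with IBH1 (r = 0.802). PRE2 ran against PRE5 (r = -0.657) and IBH1 (r = -0.593), and PRE1 with PRE2 had r = -0.01. These are descriptions over 10 points that share their libraries and come from both sets. PRE5 averaged 12.4 to 18.4 CPM in WT and the single mutants and 4.45 to 10.8 in the triple mutants and pifq. The means of PRE6 and IBH1 overlapped between the sets. The part of this split in these values, and in those of the closest loci below, was not tested. Of 12258 other loci with a mean of at least 5 CPM, the closest to PRE5 were XTH33, a cell wall xyloglucan enzyme gene (r = 0.972), and AT4G12520 (r = 0.972). The closest to IBH1 were AT5G19875 (r = 0.963) and TCP8, a gene for a TCP transcription factor (r = 0.959). The closest to PRE1 were RD28, an aquaporin gene (r = 0.949), and ALDH2B7, an aldehyde dehydrogenase gene (r = 0.945). The closest to PRE2 were FAP3, for a fatty-acid-binding protein of the plastid (r = 0.986), and GLK2, a regulator of chloroplast development (r = 0.969). PRE6 was closest to CER4, a wax alcohol-forming enzyme gene (r = 0.950), and AT4G26940 (r = 0.945), and PRE3 to HB34 and AT1G75710 (both r = 0.874).

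Other genes of the circuit were counted in pifq against WT, where 15.2% of loci were called. Of 9 bHLH activators that IBH1 or its relatives bind, 1 rose and 2 fell, with a median log2 fold change of -0.43 against -0.01 over all loci. BEE1, a brassinosteroid-induced activator, fell from 11.2 ± 2.1 to 4.50 ± 0.26 CPM (log2 fold change -1.31 ± 0.29, adjusted p = 0.00199), a call that held without any single library. BEE3, its close relative, rose from 12.4 ± 3.6 to 25.7 ± 3.9 CPM (1.05 ± 0.36, adjusted p = 0.0443), a call lost without WT B, WT C, pifq B or pifq C. CIB1, a flowering activator, was not called (-0.80 ± 0.32, adjusted p = 0.0878) but fell with the block (-0.84 ± 0.24, adjusted p = 0.0101) and without pifq C (adjusted p = 0.0390). Of 9 inhibitory helix-loop-helix relatives, none rose and 2 fell (median -0.48). HFR1, which blocks DNA binding by PIF proteins, fell from 69.0 ± 19.6 to 4.86 ± 0.16 CPM (-3.82 ± 0.32, adjusted p = 3.16e-09). It was the 1 gene of these lists called in 5 of the 9 comparisons with WT, the others being pif345 at -1.55, pif145 at -1.93, pif135 at -1.83 and the libraries labelled pif134 at -2.08. UPB1, a regulator of the root's shift from cell division to differentiation, fell from 77.2 ± 39.1 to 29.3 ± 8.3 CPM (-1.40 ± 0.39, adjusted p = 0.0138), a call lost without WT A or pifq C. With the block 5 of these 9 relatives were called (32.4% of loci): HFR1, UPB1 and AIF3 (-0.74 ± 0.27, adjusted p = 0.0404) fell, and AIF1 (0.66 ± 0.25, adjusted p = 0.0465) and AIF2 (0.57 ± 0.21, adjusted p = 0.0431) rose.

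Of 12 genes of brassinosteroid, auxin or gibberellin synthesis and signalling, activators and repressors alike, 11 were tested (BSU1 was not). None was called in pifq by edgeR's test (median -0.10, with no adjusted p below 0.0798). With the block ARF6, an auxin response factor, at -0.92 ± 0.23 (adjusted p = 0.00438) and BES1, a brassinosteroid response factor, at 0.78 ± 0.19 (adjusted p = 0.00387) were called. Of 13 genes linked to cell elongation, 5 fell and none rose, with a median of -0.13, and each of the 5 calls held without any single library. IAA29, an auxin response repressor gene, fell from 18.0 ± 8.7 to 3.02 ± 0.19 CPM (-2.57 ± 0.46, adjusted p = 0.000234). XTH15, a xyloglucan enzyme gene, fell from 403 ± 91 to 75.2 ± 20.5 CPM (-2.42 ± 0.33, adjusted p = 9.48e-06). XTH33, the gene closest to PRE5 above, fell from 16.96 ± 8.18 to 5.02 ± 0.83 CPM (-1.75 ± 0.31, adjusted p = 0.000217). IAA19 and XTH19 were the other 2 that fell. With the block 9 of the 13 were called (32.4% of loci), and 3 of these rose: XTH4 at 0.89 ± 0.20, EXPA5 at 0.72 ± 0.18 and EXPA1 at 0.71 ± 0.27 (adjusted p = 0.00182, 0.00387 and 0.0484). EXPA11 was the added call that fell (-0.61 ± 0.19, adjusted p = 0.0165). Without the block XTH4 and EXPA5 were called higher when pifq A was left out, and EXPA1 when pifq B was.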

How the data were processed

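RNA from 30 libraries of 10 genotypes was analysed, 18.97 to 70.8 M counts each. Per the labels, the authors captured polyadenylated 3′ ends in a directional library and ran technical duplicates, and per the submitters' processing notes they used Bowtie 0.12.7, TAIR10 and edgeR (no version or role given). They deposited raw counts of reads for each locus. An unnamed last value in each column (at most 0.0015% of a library) was dropped. In 3 columns it was not whole, so these columns were noted as estimated counts as deposited. Every named locus was whole, and all columns were fitted alike as counts.

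Counts were fitted with edgeR 4.0.16 in R 4.3.3 (TMM scaling, filterByExpr with a minimum count of 10, quasi-likelihood test, all libraries in 1 fit), and p was adjusted by Benjamini-Hochberg over the 18680 loci of a comparison; an adjusted p under 0.05 is a call. SE is the log2 fold change divided by the square root of F. The script was tested on simulated data. Alternatives were total counts alone, DESeq2 1.42.0, no filter, only the groups compared, the replicate letter as a block, and each library left out; a fit without the libraries labelled pif134, the same alternatives for the other lists, and leave-outs, DESeq2, no filter and the block within sets for the 12 pairs were added later. Same-letter deviations from genotype means correlated above 0.1 for all 3 letters in 19 of 20 genotype pairs within a set and in 1 of 25 between sets. The block within sets therefore took the letters as pairs within sets only. The main fit held genotype alone and did not use this pairing.

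Members and lists were chosen with earlier results of these data known. From each list the text names the 3 called genes that moved furthest between WT and pifq and any called in at least 5 of 9 comparisons with WT, and for each member the 2 loci most like it; 1 called gene of the activator list is counted but not reported here by name; CIB1, ARF6, BES1, AIF1, AIF2, AIF3, XTH4, EXPA1, EXPA5, EXPA11, and IAA19 and XTH19 by name only, were added after their values were seen. Upstream bases came from the TAIR10.1 genome by RefSeq coordinates.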

Additional observations from a re-analysis of the deposited data

Results flagged for a closer look

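The fitted changes of PRE1 for PIF4 had opposite signs in the 2 backgrounds, as labelled, and their difference passed the test of an interaction. The change in pif4 against WT, 0.53 ± 0.32, was not called, so its sign is not settled. PIF4 transcript was not low in pif4 or pifq, so both losses rest on the labels. This difference, the log2 fold change of pif4 against WT minus that of pifq against pif135, was 2.01 ± 0.46 (edgeR quasi-likelihood test, adjusted p = 0.0371). The difference kept its sign without any single library, at 1.76 to 2.37, and its call in 4 of 12 such fits. It was not called in a fit to the 4 groups alone.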

How the results depend on the processing

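The calls of PRE5 and PRE2 in pifq, PRE2 in the libraries labelled pif134 and PRE1 between pif1 and pif5 were kept in every alternative run for them. The replicate block within sets raised the number of members called to 2 in pif1, 1 in pif5, 1 in pif345, 2 in pif145, 2 in pif135 and 5 in pifq against WT, to 2, 3 and 2 in pifq against pif345, pif135 and the libraries labelled pif134, to 2 in the PIF4 interaction, and to 2, 2 and 1 in pif1 against pif5, pif3 against pif5 and pif145 against the libraries labelled pif134. A block shared by all libraries gave 1 in pif345, 2 in pif145 and 4 in pifq against WT (PRE6 added, at -1.08, adjusted p = 0.0159), 1 in pifq against the libraries labelled pif134 and 1 in pif3 against pif5. DESeq2 gave 1 in pifq against the libraries labelled pif134 and 1 in pif3 against pif5. Fits to only the groups compared gave 0 in pifq against pif135 and 0 in the PIF4 interaction. In pifq against WT the block within sets called 5 inhibitory relatives, 2 hormone inputs and 9 elongation genes, and the shared block and the fit to only the groups compared each called 1 hormone input. No share of all loci is given for unadjusted p, the shared block, DESeq2, the fits to only the groups compared or the leave-outs. Their counts are therefore not read as results about the members or the lists.

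Leaving out 1 library gave 0 to 2 members in pif145, 0 to 1 in pif135, 0 to 1 in pifq against pif135, 0 to 1 in pifq against the libraries labelled pif134, 0 to 1 in the PIF4 interaction, 0 to 0 in pif4 against pif5, 0 to 1 in pif345 against pif135 and 0 to 1 in pif135 against the libraries labelled pif134. For the lists in pifq it gave 1 to 3 activators, 1 to 2 inhibitory relatives, 0 to 1 hormone inputs and 5 to 7 elongation genes. The members called in pifq against WT varied too: IBH1 was lost without WT A, pifq A or pifq C, and PRE6 was gained without pifq B. Leaving the libraries labelled pif134 out of the fit changed no call of a member. Of 102 fold changes of members, not counting the 12 pairs, 27 changed sign under at least 1 alternative, none of them called in either fit; their sizes as reported were at most 0.51 on the log2 scale, but PRE2 in pif4 against WT went from 0.20 to -1.08, and in the PIF4 interaction from 0.22 to -1.08, without pif4 C. No call reversed.

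With 7 to 8 reads per WT library, PRE2 is the value most limited by depth, and PRE4 cannot be told from 0 below its limits. The set of libraries and the genotype cannot be told apart where triple mutants or pifq meet WT, and why the block changed calls was not tested.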
